A study of Mus musculus with 16 samples.

Results

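The 10 genes described here encode the glycine cleavage system and the enzymes that link glycine and serine to the methionine cycle in liver: Amt, Gldc, Gcsh, Dld, Shmt1, Shmt2, Gnmt, Mat1a, Bhmt and Cbs. They were chosen by symbol, as probe sets that the platform annotation gives to 1 of these genes alone, and each gene was read from its probe set with the highest mean. All 10 were measured, among 19938 genes with a single symbol. RNA came from liver of 16 adult mice, 1 Affymetrix MoGene 1.0 ST array each, in 4 groups of 4: Gli2 heterozygous null mice on a high-fat diet (Het_HFD), Gli2 heterozygous null mice on the control diet (Het_control), wild-type mice given the high-fat diet (WT_HFD) and wild-type mice given the control diet (WT_control). The diets lasted 12 weeks in every group, and the study asked how losing 1 copy of Gli2, which encodes a transcription factor of hedgehog signalling, bears on the response to a high-fat diet. The wild-type labels name Gli1 in their genotype, while the series text speaks of Gli2. The sources used here do not give the strain, the sex or how the null allele was made.

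The glycine cleavage system is a mitochondrial complex of liver and kidney that breaks glycine down to carbon dioxide and ammonia and passes its remaining carbon to tetrahydrofolate. Gldc is its glycine decarboxylase (P protein), Gcsh carries the intermediate on a lipoyl arm (H protein), Amt hands the carbon to folate (T protein), and Dld reoxidises the lipoyl arm (L protein), a task it also has in the pyruvate, oxoglutarate and branched-chain ketoacid dehydrogenases. Shmt1 in the cytosol and Shmt2 in mitochondria interconvert serine and glycine. Mat1a makes S-adenosylmethionine in hepatocytes, Gnmt spends it on glycine to form sarcosine, Bhmt returns homocysteine to methionine with a methyl group from betaine, and Cbs commits homocysteine to cysteine synthesis.

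The 250 bases before the annotated start are shown for 4 of the genes on whose values the results below turn: Amt, which differed most by diet in wild type, Gldc, its partner in the same complex, and Dld and Shmt2, which with Amt had the smallest p-values by diet in heterozygotes. The sequences are those of RefSeq, build GRCm38.p6, written 5′ to 3′ on the gene's strand, at chr9:108296655-108296904 (plus strand) for Amt, chr19:30175442-30175691 (minus strand) for Gldc, chr12:31351472-31351721 (minus strand) for Dld and chr10:127522445-127522694 (minus strand) for Shmt2. Capitals mark matches, on either strand, to the 4 motifs searched.
Amt: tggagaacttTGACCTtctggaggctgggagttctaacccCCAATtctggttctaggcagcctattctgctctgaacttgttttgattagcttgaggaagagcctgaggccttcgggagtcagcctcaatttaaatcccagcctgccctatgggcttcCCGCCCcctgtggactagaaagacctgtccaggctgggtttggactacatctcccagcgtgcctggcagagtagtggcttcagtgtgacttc
Gldc: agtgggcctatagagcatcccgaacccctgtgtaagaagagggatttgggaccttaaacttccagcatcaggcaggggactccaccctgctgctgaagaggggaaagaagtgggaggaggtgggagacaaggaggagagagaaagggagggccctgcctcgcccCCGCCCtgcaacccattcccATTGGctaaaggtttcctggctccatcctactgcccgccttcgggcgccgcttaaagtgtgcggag
Dld: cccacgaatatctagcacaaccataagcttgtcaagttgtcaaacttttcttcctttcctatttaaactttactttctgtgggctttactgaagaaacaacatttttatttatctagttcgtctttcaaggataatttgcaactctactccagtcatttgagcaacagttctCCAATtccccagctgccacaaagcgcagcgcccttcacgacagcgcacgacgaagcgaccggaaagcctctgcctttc
Shmt2: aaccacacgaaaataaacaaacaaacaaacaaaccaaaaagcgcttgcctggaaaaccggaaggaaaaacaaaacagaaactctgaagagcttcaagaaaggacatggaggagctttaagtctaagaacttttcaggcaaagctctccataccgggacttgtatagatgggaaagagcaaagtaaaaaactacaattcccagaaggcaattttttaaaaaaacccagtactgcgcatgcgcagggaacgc
The NF-Y box was searched as CCAAT and the GC box as GGGCGG. The half-site of nuclear receptors was searched as AGGTCA and the core of the amino acid response element as TGANGCAA. Matches of different motifs shared 0 bases. A promoter was found for 9 of the 10 genes, all but Mat1a. The NF-Y box lay in 8 of these 9 windows, against 33.8% of the 32851 windows of the RefSeq table, the GC box in 5 of 9 against 32.7%, the half-site in 3 of 9 against 14%, and the amino acid response core in 0 of 9 against 3.12%. Amt held 1 NF-Y box, 1 GC box and 1 half-site, Gldc 1 NF-Y box and 1 GC box, and Dld 1 NF-Y box. The Shmt2 window held none of the 4 motifs. The Bhmt window lay on chromosome 13, and the sources used here do not state whether the Bhmt probe set reads that locus. For the 10 genes, windows on 1 other chromosome were left out by choice, whereas the shares over the RefSeq table count every window. That window held 3 half-sites, and Gnmt held 1. The shares over the RefSeq table are not matched to the level of the 10 genes, and the differences in share were not tested. These matches describe letters in the window and not bound sites.

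All levels below are log2 RMA values, in which 1 unit is a 2-fold difference and levels are comparable between arrays for 1 probe set but not between probe sets. Hepatocyte markers averaged 13.49 to 13.64 on all 16 arrays (8 of 10 listed genes measured, among them Alb and Apoa1). Array 2 of the heterozygous control group, Het_control 2, stood apart: over all genes it correlated with the rest at r = 0.961 to 0.979, whereas the other 15 correlated with each other at 0.990 to 0.997. The interquartile range of gene levels was 1.95 on Het_control 2, against 2.4 to 2.6 on the other 15. Het_control 2 was kept, and the differences it moved most are also given without it. Gli2 itself averaged 7.53 ± 0.07 in Het_HFD and 7.70 ± 0.30 in Het_control, against 7.51 ± 0.08 in WT_HFD and 7.57 ± 0.02 in WT_control (SD, n = 4 each), and it was not called by genotype on the control diet (limma adjusted p = 0.447) or on the high-fat diet (limma adjusted p = 1). Since the sources used here do not say which exons the null allele lacks, this level does not check the labels.

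In heterozygotes, none of the 10 genes passed the test for diet. A gene is called at a limma p-value under 0.05 after Benjamini-Hochberg adjustment over all 19938 genes, and 0 of the 10 were called, against 2.22% of all genes. High-fat and control animals overlapped for all 10 genes, whereas 6.58% of all genes had the 4 high-fat arrays above the 4 controls. Every one of the 10 nevertheless had a higher mean in Het_HFD than in Het_control, by 0.08 to 0.57 on the log2 scale, with a median difference of 0.22. Over all genes 40.5% had a difference above 0 and the median was -0.05. Among genes at or above the median level, to which these belong, the median was 0.07, against -0.13 among dimmer genes. The share of 40.5% is therefore not matched to the level of the 10 genes. At an unadjusted p under 0.05 there were 5 of 10, Amt, Gldc, Dld, Shmt2 and Bhmt, against 31.6% of all genes.

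**Figure D1:**
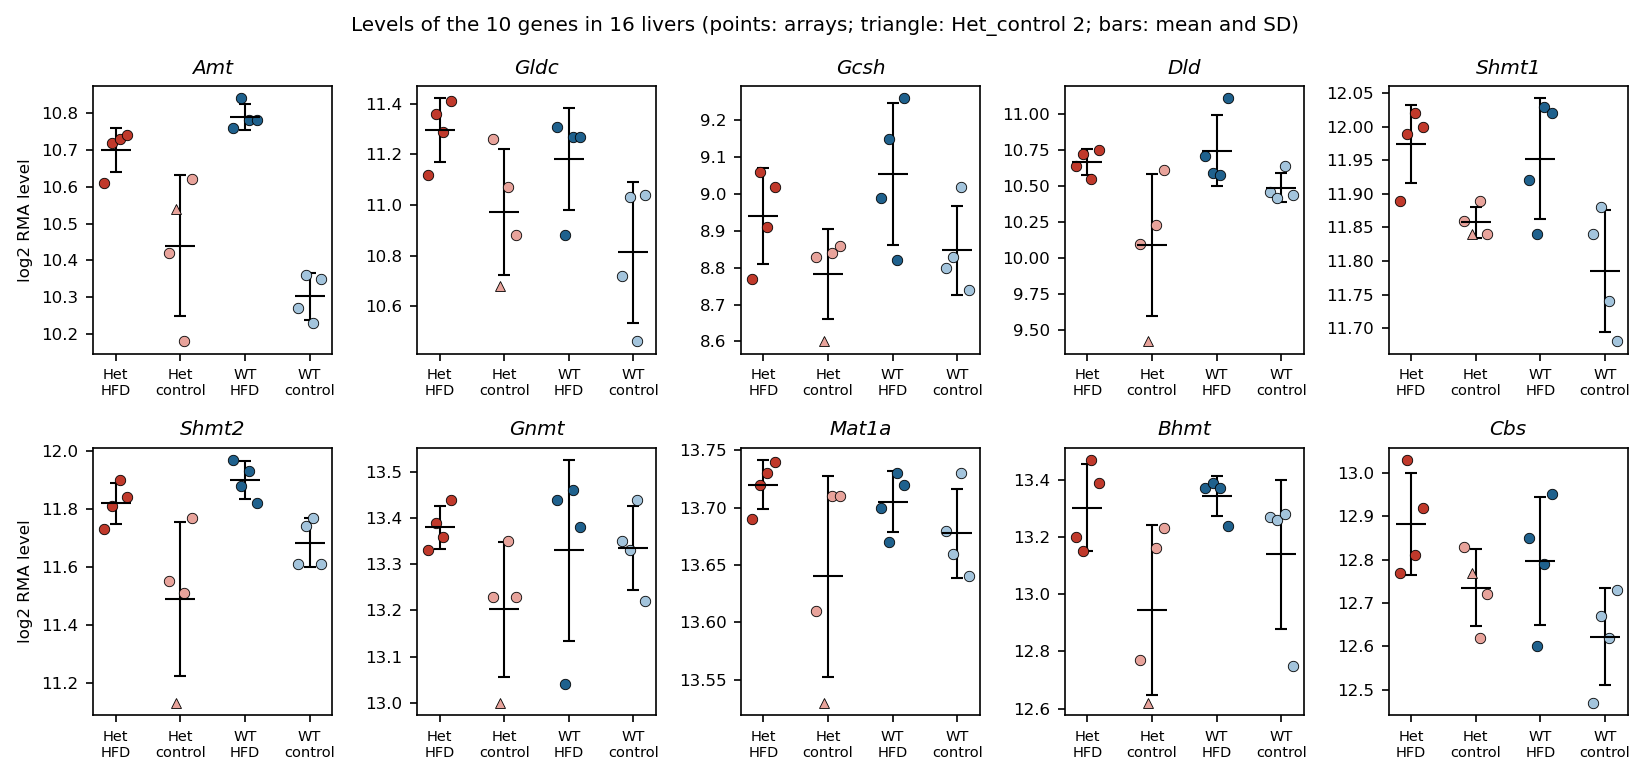
Log2 RMA level (y axis, a separate scale in each panel) of the 10 genes in Het_HFD, Het_control, WT_HFD and WT_control livers. Points are single arrays, the triangle is Het_control 2, and bars give the mean and SD of 4 arrays. Amt reads 10.76 to 10.84 in WT_HFD, above all 4 WT_control arrays at 10.23 to 10.36, and the Dld level of Het_control 2, at 9.42, lies below all others.

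Among the glycine cleavage genes, Amt read 10.61, 10.72, 10.73 and 10.74 in Het_HFD, against 10.42, 10.54, 10.18 and 10.62 in Het_control. The highest control animal lay just above the lowest high-fat animal, so the groups overlapped by that pair. The difference was 0.26 (SE 0.08, limma adjusted p = 0.0723). Dld read 10.64, 10.72, 10.55 and 10.75 in Het_HFD, against 10.10, 9.42, 10.23 and 10.61 in Het_control. High-fat animals kept to a narrow band while control animals were spread over more than 1 log2 unit, with Het_control 2 lowest and Het_control 4 inside the high-fat range. Its difference was 0.57 (SE 0.18, limma adjusted p = 0.0736), and 0.35 (limma adjusted p = 0.147) without Het_control 2. Gldc read 11.12, 11.36, 11.29 and 11.41 in Het_HFD, against 11.26, 10.68, 11.07 and 10.88 in Het_control. Control animal 1 was within the high-fat range and the other 3 were below it. The Gldc difference was 0.32 (SE 0.14, limma adjusted p = 0.135), or 0.23 (limma adjusted p = 0.381) without Het_control 2. Gcsh ranged over 8.77 to 9.06 in Het_HFD and 8.60 to 8.86 in Het_control, a difference of 0.16 (SE 0.10, limma adjusted p = 0.246), or 0.10 (limma adjusted p = 0.594) without Het_control 2.

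For the serine hydroxymethyltransferases, the mitochondrial Shmt2 read 11.73, 11.81, 11.90 and 11.84 in Het_HFD, against 11.55, 11.13, 11.51 and 11.77 in Het_control. Only Het_control 4 reached the high-fat range, and the difference was 0.33 (SE 0.10, limma adjusted p = 0.0711), or 0.21 (limma adjusted p = 0.125) without Het_control 2. The cytosolic Shmt1 was tighter within groups, at 11.89 to 12.02 in Het_HFD and 11.84 to 11.89 in Het_control, for a difference of 0.12 (SE 0.06, limma adjusted p = 0.198).

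In the methionine cycle, Bhmt read 13.20, 13.15, 13.47 and 13.39 in Het_HFD, against 12.77, 12.62, 13.16 and 13.23 in Het_control. Control animals 1 and 2 were below every high-fat animal and the other two were not, and the difference was 0.36 (SE 0.14, limma adjusted p = 0.109), or 0.25 (limma adjusted p = 0.306) without Het_control 2. The symbol Bhmt belongs to 3 probe sets, and which sequence each one reads, or whether it also reads a near-identical copy, is not stated by the sources used here. Their levels correlated at r = 0.93 to 0.99 over the 16 arrays, and the other two gave diet differences in heterozygotes of 0.45 and 0.27. Gnmt, the glycine methyltransferase, ranged over 13.33 to 13.44 in Het_HFD and 13.00 to 13.35 in Het_control, with a difference of 0.18 (SE 0.09, limma adjusted p = 0.18), or 0.11 (limma adjusted p = 0.495) without Het_control 2. Mat1a differed least, by 0.08 (SE 0.05, limma adjusted p = 0.29), or by 0.04 (limma adjusted p = 0.643) without Het_control 2, with 13.69 to 13.74 in Het_HFD and 13.53 to 13.71 in Het_control. Cbs differed by 0.15 (SE 0.08, limma adjusted p = 0.211), with 12.77 to 13.03 in Het_HFD and 12.62 to 12.83 in Het_control. By mean level, Mat1a lay at percentile 99.9 of all genes, Gnmt at 99.6, Bhmt at 99.4 and Cbs at 98.7. Whether differences are compressed so near the top of the scale was not tested. Small differences there, as for Mat1a and Gnmt, therefore do not establish stable expression.

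The count of calls among the 10 genes turned on single arrays and on how the arrays were weighted. It was 2 with array weights (Amt and Dld) and 5 (Amt, Gldc, Dld, Shmt2 and Bhmt) with a random block by the number in the sample titles, whose meaning is not stated, a setting that called 6938 genes over the whole array. Without Het_control 4, whose levels of Amt, Dld, Shmt2 and Bhmt were the highest of its group, those 4 genes were called, at limma adjusted p-values of 0.0109 to 0.0363, while the number of called genes over the whole array went to 3446. Without Het_control 2, 0 of the 10 were called, all 10 differences stayed above 0 and their median was 0.18. With quantile normalization repeated on the deposited values, 0 were called as well. The differences were then 0.16 for Amt, 0.24 for Gldc, 0.16 for Gcsh, 0.51 for Dld and 0.05 for Shmt1. They were 0.25 for Shmt2, 0.12 for Gnmt, 0.03 for Mat1a, 0.28 for Bhmt and 0.08 for Cbs. The same arrays differed in other markers. Macrophage and Kupffer cell markers averaged 10.50 to 10.89 in Het_HFD, against 9.88 to 10.39 in Het_control, and 8 of the 12 listed genes rose with diet in heterozygotes, against 1.5% of all genes. Without Het_control 2 it was 4 of 12, where 0.873% of all genes were called in either direction. The averages of 3 other lists did not overlap either, with 0 genes called in each. Pericentral hepatocyte markers averaged 11.78 to 11.91 in Het_HFD, against 11.48 to 11.73 in Het_control. Cholangiocyte markers averaged 7.81 to 8.02 in Het_HFD, against 8.07 to 8.19 in Het_control, and pancreas markers 7.77 to 7.96 in Het_HFD, against 7.97 to 8.30 in Het_control. Fewer cells of a type and less RNA per cell cannot be told apart in bulk tissue, and the part of other cell types in the differences of the 10 genes was not tested. The general hepatocyte markers differed by -0.10 to 0.10 in the same comparison, with 0 of 8 called. Their mean levels lay at percentiles 98.4 (Hnf4a) to 100 (Alb) of all genes, where compression of differences was not tested.

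In wild type, Amt showed the largest difference of the 10 genes, and earlier results of these data in this comparison had pointed to it, so the wild-type diet values are a description without a test. Amt read 10.76, 10.84, 10.78 and 10.78 in WT_HFD, against 10.27, 10.36, 10.23 and 10.35 in WT_control. The groups did not overlap, the means were 10.79 ± 0.04 in WT_HFD and 10.30 ± 0.07 in WT_control (SD, n = 4 each), and the difference was 0.49 (SE 0.08), a 1.40-fold higher level. No gene of the whole array was called by diet in wild type (0% of 19938, with 1282, or 6.43%, at an unadjusted limma p under 0.05). Shmt2 was the other gene whose groups did not overlap, at 11.97, 11.88, 11.93 and 11.82 in WT_HFD, against 11.61, 11.74, 11.77 and 11.61 in WT_control, with a difference of 0.22 (SE 0.10). The count of genes with all 4 high-fat arrays above all 4 controls, 2 of 10 where 3.51% of all genes had this, holds Amt itself and is given as a description only.

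Gldc read 11.31, 10.88, 11.27 and 11.27 in WT_HFD, against 10.72, 11.03, 10.46 and 11.04 in WT_control, a difference of 0.37 (SE 0.14). High-fat animal 2 fell inside the control range. Dld read 10.71, 10.59, 10.58 and 11.11 in WT_HFD, against 10.46, 10.42, 10.64 and 10.44 in WT_control, a difference of 0.26 (SE 0.18), or 0.14 without WT_HFD 4, the highest. Bhmt read 13.37, 13.39, 13.37 and 13.24 in WT_HFD, against 13.27, 13.26, 13.28 and 12.75 in WT_control, where animal 4 was far below the other three. The Bhmt difference was 0.20 (SE 0.14), or 0.08 without that animal. The Bhmt probe sets that gave 0.45 and 0.27 in heterozygotes gave 0.23 and 0.30 in wild type. Gcsh (0.21, SE 0.10), Shmt1 (0.17, SE 0.06) and Cbs (0.17, SE 0.08) were also higher in WT_HFD by more than their SE, with overlapping groups. Mat1a (0.03, SE 0.05) and Gnmt (-0.01, SE 0.09, and -0.05 to 0.09 with 1 array left out) differed by less than their SE. Both lay near the top of the scale, as given above, so these values do not establish stable expression. In all, and again with Amt among them, 9 of the 10 differences were above 0. The share over all genes, not matched for level, was 44%. The median of the 10 was 0.21, against -0.01 over all genes and 0.02 among genes at or above the median level. Lymphocyte markers averaged 7.23 to 7.39 in WT_HFD, against 7.52 to 7.62 in WT_control, with 0 of 7 measured genes called. The part of cell types in the wild-type differences was not tested.

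**Figure D2:**
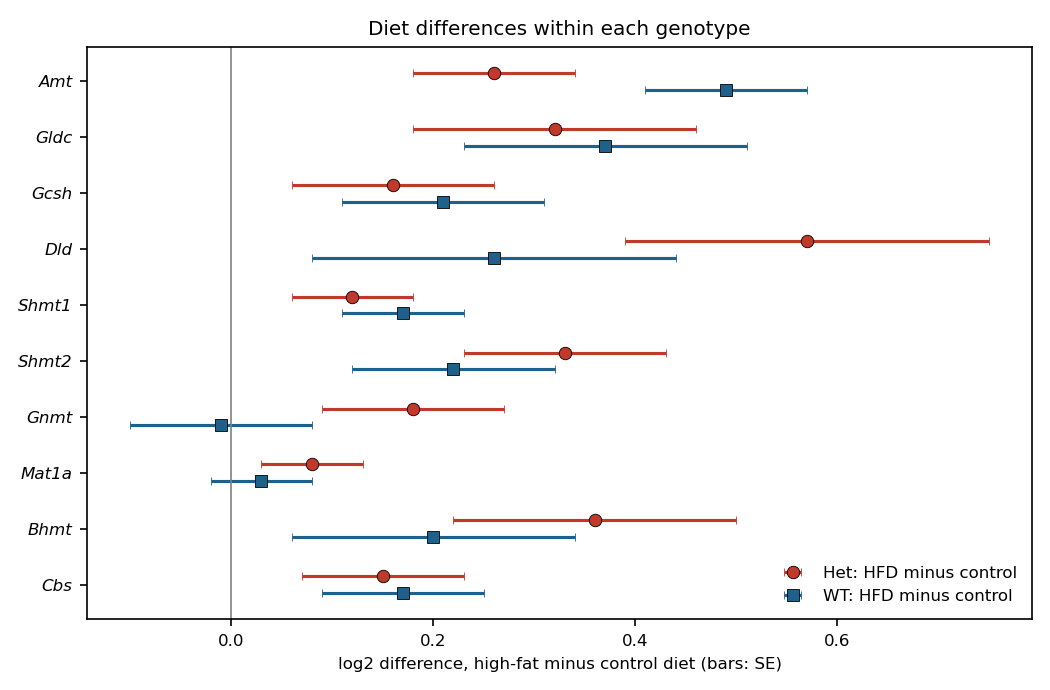
Log2 difference, high-fat minus control diet (x axis), of each of the 10 genes in heterozygotes (circles) and wild type (squares), with bars for the SE. Dld has the largest difference in heterozygotes, 0.57, Amt the largest in wild type, 0.49, and Gnmt in wild type, at -0.01, is the one value not above 0.

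Set side by side, the diet difference of Amt was 0.26 in heterozygotes and 0.49 in wild type. The difference between these 2 effects was -0.23 (SE 0.11), given without a test since it holds the arrays that pointed to Amt. For the other 9 genes the diet by genotype interaction was tested, and 0 of 9 were called, as were 0% of all genes (1621 of 19938, or 8.13%, at an unadjusted limma p under 0.05, and 0 of the 9). Dld had an interaction of 0.31 (SE 0.25, limma adjusted p = 0.684), Gnmt of 0.19 (SE 0.13, limma adjusted p = 0.661), Bhmt of 0.15 (SE 0.19, limma adjusted p = 0.775) and Shmt2 of 0.11 (SE 0.14, limma adjusted p = 0.777). The remaining 5 lay between -0.05 and 0.05. Without Het_control 2 the interaction was 0.09 for Dld, 0.12 for Gnmt, 0.04 for Bhmt and -0.01 for Shmt2, and the other 5 lay between -0.15 and 0.02. The SEs of 0.08 to 0.25 show how wide a difference between the genotypes these arrays leave undetermined.

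By genotype, none of the 9 genes tested was called on either diet. On the control diet, Dld was lower in heterozygotes by the largest amount, averaging 10.09 ± 0.50 in Het_control and 10.49 ± 0.10 in WT_control (SD, n = 4 each), a difference of -0.40 (SE 0.18, limma adjusted p = 0.308). It was the 1 gene of 9 at an unadjusted p under 0.05, against 15.7% of all genes, and its difference was -0.17 without Het_control 2. Shmt2 averaged 11.49 ± 0.27 in Het_control and 11.68 ± 0.08 in WT_control, a difference of -0.19 (SE 0.10, limma adjusted p = 0.333). Bhmt differed by -0.19 (SE 0.14, limma adjusted p = 0.407), Gnmt by -0.13 (SE 0.09, limma adjusted p = 0.4) and Gldc by 0.16 (SE 0.14, limma adjusted p = 0.49). Cbs, Shmt1, Mat1a and Gcsh lay between -0.07 and 0.11. Without Het_control 2 the differences were -0.07 for Shmt2 (limma adjusted p = 0.852), -0.09 for Bhmt, -0.07 for Gnmt, 0.26 for Gldc (limma adjusted p = 0.664) and 0.00 for both Gcsh and Mat1a. Amt averaged 10.44 ± 0.19 in Het_control and 10.30 ± 0.07 in WT_control, a difference of 0.14 (SE 0.08) given without a test. Over all genes 0% were called on this diet, with 3135 at an unadjusted limma p under 0.05.

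On the high-fat diet the genotypes were closer: the 9 tested genes differed by -0.12 (Gcsh) to 0.11 (Gldc), with limma adjusted p-values of 1, and 0 of 9 had an unadjusted p under 0.05, against 3.57% of all genes. Over the whole array 1 gene was called, 0.00502%. The 4 Amt levels of Het_HFD, 10.61 to 10.74, lay below the 4 of WT_HFD, 10.76 to 10.84, a difference of -0.09 (SE 0.08) given without a test, where 1.57% of all genes had groups apart in that direction. Shmt2 averaged 11.82 ± 0.07 in Het_HFD and 11.90 ± 0.06 in WT_HFD. Lymphocyte markers averaged 7.48 to 7.65 in Het_HFD, against 7.23 to 7.39 in WT_HFD, with 0 of 7 measured genes called. The diet and genotype comparisons share their groups of arrays, so these values are not independent of those above.

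**Figure D3:**
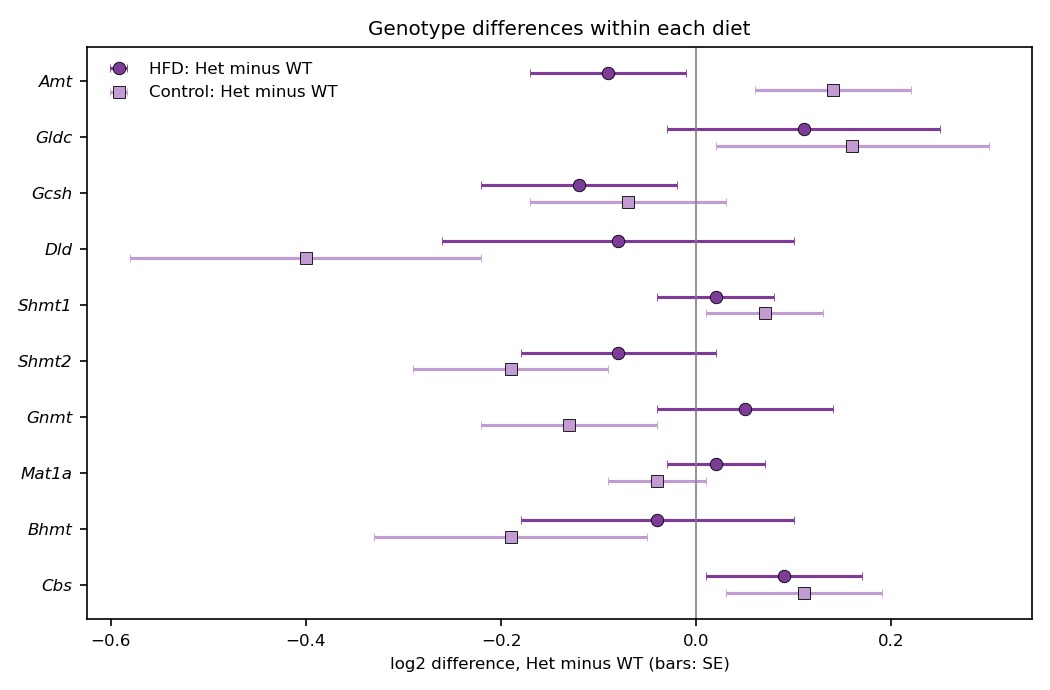
Log2 difference, Het minus WT (x axis), of each of the 10 genes on the high-fat diet (circles) and on the control diet (squares), with bars for the SE. On the high-fat diet the values lie between -0.12 and 0.11, and on the control diet Dld, at -0.40, lies farthest from 0.

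Over all 4 groups, Amt averaged 10.70 ± 0.06 in Het_HFD, 10.44 ± 0.19 in Het_control, 10.79 ± 0.04 in WT_HFD and 10.30 ± 0.07 in WT_control (SD, n = 4 each). Its order from high to low was thus WT_HFD, Het_HFD, Het_control and WT_control, and the last pair differed by less than the larger SD. Dld averaged 10.67 ± 0.09 in Het_HFD, 10.09 ± 0.50 in Het_control, 10.75 ± 0.25 in WT_HFD and 10.49 ± 0.10 in WT_control. Shmt2 averaged 11.82 ± 0.07 in Het_HFD, 11.49 ± 0.27 in Het_control, 11.90 ± 0.06 in WT_HFD and 11.68 ± 0.08 in WT_control. Both genes had the order WT_HFD, Het_HFD, WT_control and Het_control, with the high-fat groups close together and Het_control the most spread. Gldc averaged 11.30 ± 0.13 in Het_HFD, 10.97 ± 0.25 in Het_control, 11.18 ± 0.20 in WT_HFD and 10.81 ± 0.28 in WT_control, and each group lay within an SD of the next in its order. Bhmt averaged 13.30 ± 0.15 in Het_HFD, 12.94 ± 0.30 in Het_control, 13.34 ± 0.07 in WT_HFD and 13.14 ± 0.26 in WT_control, in the order of Dld and Shmt2.

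Around the 10 genes, 5 lists of pathway genes without any of them were examined: the folate cycle, the methionine cycle and transsulfuration, methyl acceptors and choline oxidation, serine and glycine supply and use, and lipoylation with the other dehydrogenases that share Dld. By diet in heterozygotes, 3 of their 74 measured genes rose, against 1.5% of all genes, and 0 fell, against 0.712%. Cth, cystathionine gamma-lyase, which follows Cbs in cysteine synthesis, read 12.76, 12.98, 13.05 and 13.01 in Het_HFD, against 12.47, 12.29, 12.50 and 12.59 in Het_control. All high-fat animals lay above all controls, and the difference was 0.49 (SE 0.11, limma adjusted p = 0.0372). Dbt, the acyltransferase core of the branched-chain ketoacid dehydrogenase, whose lipoyl arm Dld reoxidises, read 11.79, 12.01, 11.99 and 11.97 in Het_HFD, against 11.35, 11.01, 11.31 and 11.62 in Het_control. Its groups did not overlap either, and the difference was 0.62 (SE 0.13, limma adjusted p = 0.0352). Aldh7a1, an aldehyde dehydrogenase of lysine breakdown that can also form betaine, the methyl donor of Bhmt, read 12.95, 13.06, 13.14 and 13.11 in Het_HFD, against 12.71, 12.52, 12.71 and 12.92 in Het_control, a difference of 0.35 (SE 0.09, limma adjusted p = 0.0479). Again the groups stood apart by a small margin, at Het_control 4. Without Het_control 2, none of the 3 was called, with differences of 0.43 for Cth (limma adjusted p = 0.0672), 0.51 for Dbt (limma adjusted p = 0.0621) and 0.29 for Aldh7a1 (limma adjusted p = 0.0811).

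Nnmt, which spends S-adenosylmethionine on nicotinamide, had the largest difference in these lists, 0.80 (SE 0.22, limma adjusted p = 0.0565) in heterozygotes and 0.69 (SE 0.22, limma adjusted p = 0.498) in wild type. In heterozygotes it read 12.29, 12.63, 12.46 and 12.54 in Het_HFD, against 11.21, 11.42, 11.84 and 12.26 in Het_control, with groups that did not overlap. Lias, lipoyl synthase, differed by 0.38 (SE 0.11, limma adjusted p = 0.0687), and Gclc, which starts glutathione synthesis, by 0.34 (SE 0.13, limma adjusted p = 0.107). Bhmt2, the methyltransferase related to Bhmt, differed by 0.21 (limma adjusted p = 0.141). Among the enzymes of choline and betaine breakdown, Dmgdh differed by 0.19 (limma adjusted p = 0.162), Sardh by 0.12 (limma adjusted p = 0.333) and Chdh by 0.11 (limma adjusted p = 0.22). The creatine and phosphatidylcholine methyltransferases differed by 0.16 (Gamt, limma adjusted p = 0.208) and 0.06 (Pemt, limma adjusted p = 0.472). In serine synthesis, Phgdh differed by -0.08 (limma adjusted p = 0.661) and Psat1 by -0.13 (limma adjusted p = 0.18). Agxt, which turns glyoxylate to glycine, differed by 0.12 (limma adjusted p = 0.396). Of the folate enzymes, Mthfd1 differed by 0.15 (limma adjusted p = 0.172), Aldh1l1 by 0.15 (limma adjusted p = 0.243), Mthfd2 by -0.08 (limma adjusted p = 0.499) and Mtr, the folate-dependent methionine synthase, by -0.09 (limma adjusted p = 0.324). Several of these rested in part on Het_control 2: without it the differences were 0.71 for Nnmt, 0.24 for Lias, 0.24 for Gclc and 0.10 for Bhmt2. Without that array they were also 0.09 for Dmgdh, 0.06 for Gamt and 0.00 for Pemt. They were likewise 0.04 for Phgdh, 0.08 for Agxt, 0.09 for Aldh1l1 and -0.02 for Mthfd2. The Sardh difference was instead larger without Het_control 2, at 0.19.

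By list, the diet difference in heterozygotes had a median of 0.08 for the folate cycle (18 of 21 genes measured, 0 called), 0.21 for the methionine cycle and transsulfuration (13 of 16, 1 called), 0.17 for methyl acceptors and choline oxidation (12 of 13, 1 called), 0.17 for serine and glycine supply and use (18 of 21, 0 called) and 0.18 for lipoylation and the other dehydrogenases (13 of 13, 1 called). Without Het_control 2 these medians were 0.02, 0.10, 0.14, 0.14 and 0.07, with 0 called in each list. In wild type 0 genes of any list were called, and the medians were 0.03, 0.10, 0.07, 0.08 and 0.13 in the same order. Ahcy, Mat2a and Sds have no probe set with a single symbol and were not analysed here.

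**Figure D4:**
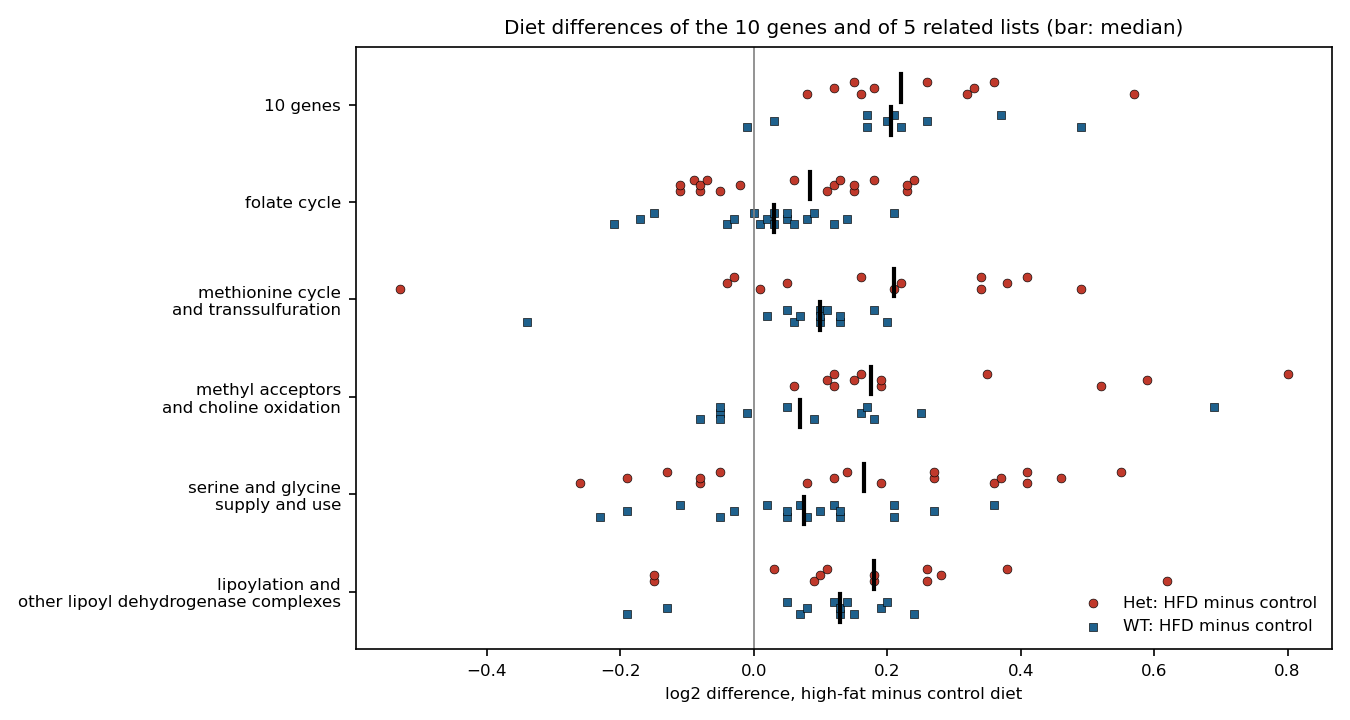
Log2 difference, high-fat minus control diet (x axis), of the 10 genes and of the measured genes of 5 related lists, in heterozygotes (circles) and wild type (squares). Each point is a gene and the black bar is the median: 0.22 in heterozygotes and 0.21 in wild type for the 10 genes, and 0.08 and 0.03 for the folate cycle.

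Across the 16 arrays, Amt was set against each of the other 9 genes. Its levels differ by diet in the wild-type arrays that pointed to it, so the correlations of levels are a description without a test. Shmt1 had Pearson's r = 0.65 and Spearman's rho = 0.55, and Cbs r = 0.62 and rho = 0.53. Shmt2 had r = 0.55 and rho = 0.80, and its r was 0.82 without Het_control 2. Gldc had r = 0.56 and rho = 0.52. Leaving out the 2 arrays farthest from the median of Amt, Het_control 3 and WT_control 3, gave r = 0.66 for Shmt1, 0.53 for Cbs, 0.58 for Shmt2 and 0.49 for Gldc. The other 5 genes had r between -0.01 (Gnmt) and 0.47 (Gcsh). When each level was taken as a deviation from its group mean, which removes the diet and genotype differences, r was -0.09 for Shmt1, 0.27 for Cbs, 0.06 for Shmt2 and -0.08 for Gldc. Over these deviations Gnmt lay farthest from 0, at r = -0.49. None of the 9 relations passed there (two-sided permutation tests of 100000 resamples, adjusted p = 0.898 to 0.939).

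Among all 45 pairs of the 10 genes, r ranged from -0.05 (Bhmt and Cbs) to 0.87 (Dld and Shmt2), with 43 of 45 above 0. These arrays share the diet groups and Het_control 2, and the Dld and Shmt2 value was 0.68 without that array and 0.73 over deviations from group means. Mat1a and Bhmt had r = 0.85, Dld and Mat1a 0.84, and Shmt2 and Bhmt 0.84. Over deviations from group means 33 of 45 pairs were above 0, with a median of 0.23. These values are a description and were not tested.

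**Figure D5:**
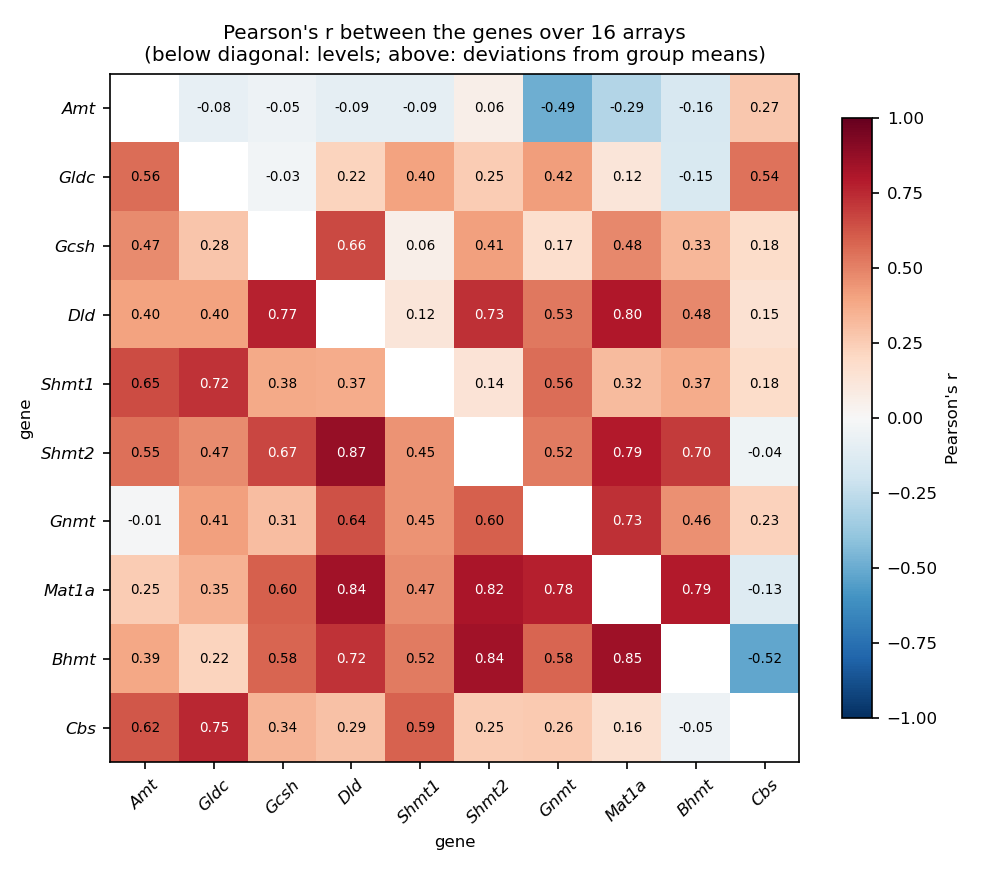
Pearson's r between the 10 genes over 16 arrays, of log2 levels below the diagonal and of deviations from group means above it, on a colour scale from -1 to 1. Below the diagonal r runs from -0.05 to 0.87, and above it from -0.52 to 0.80.

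The genes with the pattern most like Amt, by Pearson's r over 16 arrays among the 9968 other genes at or above the median level, were Lonp1, a mitochondrial protease (r = 0.88), Letm1, an inner mitochondrial membrane protein (r = 0.87), Grid1, a glutamate receptor subunit (r = 0.86), Taco1, a translational activator of mitochondrial cytochrome oxidase (r = 0.86), and Vps8, a subunit of an endosomal tethering complex (r = 0.85). Their diet differences, in heterozygotes and in wild type, were 0.22 and 0.34 for Lonp1, 0.17 and 0.39 for Letm1, 0.58 and 0.51 for Grid1, 0.22 and 0.26 for Taco1, and 0.08 and 0.14 for Vps8. They were picked as the highest of many, and no test is given.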

How the data were processed

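Liver RNA of 16 mice was read on 1 array each. The deposited values are log2 levels per probe set, which the authors computed by RMA (Affymetrix Expression Console, versions not stated), per the submitters' processing notes. This method equalises the distribution of probe intensities across arrays, so a shift of all transcripts together would be removed. Of 35556 probe sets, 21789 have 1 symbol, 1621 several and 12146 none, and only those with 1 symbol were used. Symbols were updated through Entrez numbers with RefSeq (19856 of 19938 genes matched).

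Each gene was fitted with lmFit and eBayes of limma 3.58.1 (R 4.3.3), with 1 mean per group over all 16 arrays and Benjamini-Hochberg adjustment over 19938 genes. Correlations used scipy 1.17.1. The members and lists were chosen with earlier results of these data known. All members are named, with set pathway genes, every list gene called, and the 5 genes most like Amt. Replicates are numbered in record order, which pairs nothing. The design text describes separate animals. Of 11 numbers in the sample titles, whose meaning is not stated, 5 occur on more than 1 array. They were tried as a random block. The other alternatives were trend and robust moderation, array weights, requantiling, other probe set rules, a filter on dim genes, only the 2 groups of a contrast, and leaving out each array. On simulated data with the means and spread of these arrays, 39 of 50 genes with a true diet difference of 0.5 in heterozygotes were called (78%), 48 of 50 with 1, and 15 of 19738 unchanged genes, in a fit of 19938 genes. The simulated arrays were independent with equal spread, and none stood apart like Het_control 2, so the 78% need not hold for these arrays. Precision is limited by having 4 arrays per group.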

Additional observations from a re-analysis of the deposited data

Results flagged for a closer look

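In 4 of the 40 combinations of gene and group, 1 of the 4 animals lay far from the others by Dixon's criterion, which sets its gap to the nearest animal against the group's range. Chance gives such a gap in about 1 group in 20. Gldc, the glycine decarboxylase, read 10.88 on WT_HFD 2, and the next of that group read 11.27. Gcsh, the lipoyl carrier protein, read 8.60 on Het_control 2, the array that stood apart over all genes, and the next of its group read 8.83. Bhmt, which remethylates homocysteine from betaine, read 13.24 on WT_HFD 4, next to 13.37, and 12.75 on WT_control 4, next to 13.26. The other two probe sets with the symbol Bhmt also read lowest of that group on WT_control 4, at 12.70 and 9.34.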

How the results depend on the processing

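Of 250 recomputed diet differences in heterozygotes (10 genes, 25 settings), all kept their sign, 239 stayed on the same side of the threshold and 11 passed it. The count of the 10 genes called there was 0, but 2 with array weights (Amt and Dld), 5 with a random block by title number (consensus correlation -0.372), and 0 to 4 when each array was left out, the 4 without Het_control 4. Over all genes the count in that comparison was 442, against 1067 with array weights, 7 with only the 2 groups fitted and 6938 with the block. With an array left out it was 45 to 3446 (174 without Het_control 2). With every probe set tested, 95 of 35556 probe sets were called, which is not a count of genes. By diet in wild type 0 genes became 219 with weights, 6 with 2 groups, 40 with the block and up to 7 with an array left out. By genotype on the control diet 0 became 2 with the block and up to 18 without Het_control 4, and on the high-fat diet 1 became 3 with weights or the block, 2 with 2 groups, 0 with every probe set, and 0 to 2 with an array left out. The interaction count of 0 became 1 with weights and 2 with the block. The causes were not tested. Cth was called in 15, Dbt in 14 and Aldh7a1 in 8 of 25 settings. None of the 9 genes tested was called for genotype or the interaction in any setting.

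No paired analysis was made, because the labels state no pairing of animals and most repeated title numbers stay within a single group. Values near 0 changed sign. With array weights these were Phgdh by diet in heterozygotes (0.02), Mthfd2 by diet in wild type (-0.01), Gcsh and Mat1a by genotype on the control diet (0.01 each) and the Shmt2 interaction (-0.02), and with the block Phgdh by diet in wild type (0.05). Gnmt by diet in wild type, given without a test, was 0.02 with weights, 0.04 with the block and -0.05 to 0.09 with an array left out. With an array left out, diet differences ranged from -0.22 to 0.04 for Phgdh in heterozygotes and, in wild type, from -0.10 to 0.11 for Phgdh, -0.04 to 0.07 for Aldh1l1, -0.03 to 0.04 for Chdh, -0.07 to 0.02 for Gamt and -0.02 to 0.06 for Mthfd2. Genotype differences on the high-fat diet ranged from -0.10 to 0.01 for Bhmt, -0.14 to 0.04 for Dld, -0.04 to 0.10 for Gnmt and -0.02 to 0.05 for Shmt1. Interactions ranged from -0.09 to 0.03 for Cbs, -0.13 to 0.02 for Gcsh, -0.15 to 0.07 for Gldc and -0.01 to 0.20 for Shmt2. Another Bhmt probe set gave an interaction of -0.03. Chosen after seeing the data, the settings without Het_control 2 gave medians of 0.03 (folate cycle, genotype on the control diet), -0.01 (the 10 genes, interaction) and -0.02 (serine and glycine, interaction). Of the 9 relations with Amt, 2 had an adjusted permutation p under 0.05 by r and 5 without Het_control 2, but these counts include the diet differences for which Amt was chosen and support nothing. Over deviations from group means the count was 0, where r turned to -0.08 (Gldc), -0.05 (Gcsh), -0.09 (Dld), -0.09 (Shmt1), -0.29 (Mat1a) and -0.16 (Bhmt).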
